A study of Mus musculus with 4 samples.

Results

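This report compares 2 libraries of cultured mouse neural stem cells, labelled as knockouts of Tut1 together with the p53 gene Trp53 and of Tut1 alone. The Tut1 reads went with these labels only in part, as described below, so the names stand for the libraries as labelled. The double knockout, TPDKO, carried floxed alleles of both genes (Tut1f/f;p53f/f) and the Tut1 knockout, TKO, carried floxed Tut1 only (Tut1f/f). Both were treated with lipid nanoparticles that carried Cre mRNA (Cre-LNP) for 3 days. Deletion with Cre mRNA acts on the culture as a whole, so each library can also hold RNA from cells that kept a floxed exon. Levels are also given for the p53 knockout, PKO (p53f/f, Cre-LNP), and for the control, WT, which was Tut1f/f with empty LNP and therefore neither free of the floxed allele nor exposed to Cre. The neurospheres were primary cultures from embryonic neocortex, and in the study's Tut1 allele the exon removed by Cre is the second. Genes entered the comparison with 20 or more reads in each of the TKO and TPDKO libraries, which held for 7276 of the 14949 genes with a table entry. For isoform usage, 15909 of the 46637 entries assigned to a gene entered, each with 10 or more reads over both libraries in a gene that passed the same minimum and had at least one other such isoform. Each genotype is 1 library, so no spread between cultures can be estimated, no test was run, and each interval covers the counting error of these reads only.

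TUT1 is a terminal uridylyltransferase that lengthens the oligo(U) tail of U6 snRNA, the RNA at the catalytic heart of the spliceosome. p53 is a transcription factor that is stabilised when DNA is damaged, and it switches on inhibitors of the cell cycle, such as p21 (Cdkn1a), and promoters of apoptosis, such as PUMA (Bbc3). In neural stem cells p53 restrains self-renewal and removes damaged cells, and the study deleted it together with Tut1 to ask whether the death of Tut1-deficient cells depends on it.

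Total RNA had been read as cDNA on a Nanopore instrument. The study gives a percentage of full-length reads for its Nanopore libraries, so some reads do not span their transcript. What such reads add to the isoform shares below was not tested. Reads assigned to genes numbered between 2863392 (TPDKO) and 4244467 (WT), and 17.2% of WT reads against 27.3 to 30.2% in the 3 Cre-treated libraries belonged to entries without a gene, so the WT library stood apart. Levels are in CPM, counts scaled to the gene reads of each library with TMM factors, in which 1 read was worth 0.330 CPM in TKO and 0.339 CPM in TPDKO, and 3 reads, taken as the floor for a gene without reads, were 0.990 and 1.02 CPM. A gene was called different when its TPDKO to TKO ratio was 2-fold or more and its 95% exact Poisson-based interval lay wholly on one side of no change. Reads without molecular identifiers can come from one molecule amplified by PCR, which these intervals do not cover. In bulk RNA, fewer cells that make a transcript and less transcript per cell cannot be told apart.

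The targeted genes were read first as a check of the labels. Trp53 (chr11:69580359-69591873, GRCm38) had 175 reads in WT, 67 in TKO, 10 in PKO and 19 in TPDKO. Its levels in the 2 libraries with floxed p53 and Cre, 2.87 and 6.44 CPM, lay below the 22.1 CPM of TKO, and TPDKO over TKO was -1.78 on the log2 scale (95% interval -2.60 to -1.03). The main coding transcript, ENSMUST00000005371, had 142, 48, 6 and 9 reads in the same order and a log2 ratio of -2.38 (-3.59 to -1.33). Tut1 (chr19:8953847-8966210) had 37 reads in WT, 11 in TKO, 14 in PKO and 27 in TPDKO. At a log2 ratio of 1.33 (0.27 to 2.49), TPDKO was above TKO by more than counting error. Summed over the gene, the reads went against the labels, since the library labelled TPDKO was as high as WT at 9.15 and 9.30 CPM, and the library labelled PKO, whose Tut1 was intact, was low at 4.02 CPM. That sum also holds a retained-intron form and forms named by a read, and it does not test the loss of the second exon. The 9-exon coding transcript of Tut1, ENSMUST00000096239, had 28, 0, 2 and 6 reads, and its 2.03 CPM in TPDKO (95% interval 0.746 to 4.43) lay below the 7.04 CPM of WT (4.68 to 10.2), as the labels have it, while the 2 reads of PKO did not go with its label. Between TPDKO and TKO the 6 and 0 reads of that transcript gave a lower log2 bound of 0.27. The compared libraries thus differed in remaining Tut1 RNA as well as in Trp53. Names below therefore mean the libraries as labelled, and each direction given below rests on those labels.

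The libraries also differed in sex-linked RNA. The Y-linked genes Kdm5d, Ddx3y, Eif2s3y and Uty had between 42 and 96 reads in TPDKO and between 28 and 155 in WT, with 0 in TKO and PKO, while Xist, the RNA that coats the inactive X chromosome, had 44 reads in TKO, 49 in PKO and 0 in WT and TPDKO. The embryos behind TPDKO and TKO thus differed in sex as well as in genotype, and genotype, embryo and sex cannot be told apart in this comparison. The same division of libraries ran the other way between PKO and WT.

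The cells carried the markers of their label. Fabp7, a fatty acid-binding protein of radial glia, had 9919 CPM in TKO and 11381 CPM in TPDKO, and Sox2, Nes, Vim, Hes1, Hes5 and Sox9 had between 63.4 and 758 CPM in TKO. Of the other listed markers, Pax6 was lower at 19.8 CPM in TKO and 16.6 CPM in TPDKO, Prom1 fell under the minimum with 9 and 12 reads, and Msi1 was not in the table. None of the 8 compared genes of the neural stem cell list was called, beside 1.87% of all genes, and their median log2 ratio was -0.27. Nes, an intermediate filament of these cells, had 926 reads in TKO and 588 in TPDKO (-0.62, -0.77 to -0.47), and Sox2, a transcription factor needed for their self-renewal, had 1149 and 797 (-0.49, -0.62 to -0.36). Both were lower in TPDKO by less than 2-fold. Of the markers of microglia, endothelium and fibroblasts or meninges, 1 of 6, 0 of 5 and 1 of 6 genes appeared in the table, with summed levels under 1 CPM in every library. The neuron list stayed between 67.7 and 84.7 CPM in sum, nearly all from Map2 and Tubb3, with Stmn2 and Neurod1 at 0 or 1 read. The astrocyte list summed to 505 to 674 CPM, mostly Slc1a3 and Aldoc, which radial glia also use, with Gfap not in the table. Aldh1l1, a folate enzyme of astrocytes and radial glia named after its values were seen, had 187 reads in WT, 16 in TKO, 11 in PKO and 71 in TPDKO (2.19, 1.39 to 3.07), and fell under the minimum in TKO. The oligodendrocyte lineage list summed to 642 CPM in TKO and 525 CPM in TPDKO, of which Olig2 made up 459 and 364 CPM, and the myelin gene Mbp had 2 reads in each. No gene of these 3 lists that passed the minimum was called, which with so few genes is near the 1.87% of all genes.

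Of the 7276 genes, 136 (1.87%) were called different, 85 higher in TPDKO (1.17%) and 51 lower (0.701%). The log2 ratios had a median of 0.04 and an SD of 0.40. The 95% interval excluded no change at any size for 2107 genes, 1279 of them higher and 828 lower. The share of genes called was higher among weakly read genes, whose intervals are wide. Among genes with 20 to 50 reads on average 60 of 2210 (2.71%) were called, and among those with 1000 or more 2 of 398 (0.503%).

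**Figure D1:**
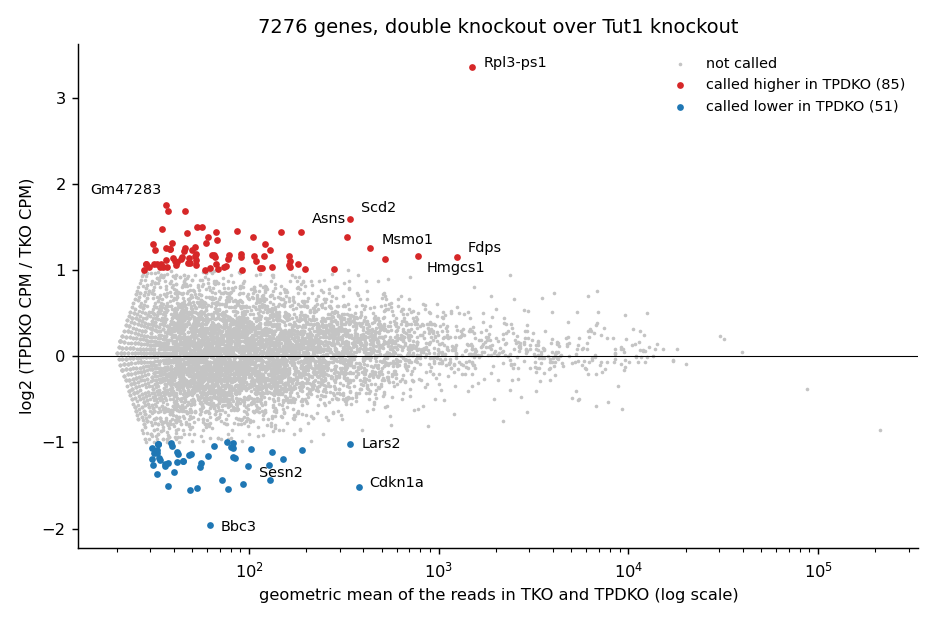
Each point is one of the 7276 genes, placed by the geometric mean of its reads in TKO and TPDKO (log axis) and its log2 TPDKO over TKO ratio, with genes called higher in red and called lower in blue. The 85 higher and 51 lower genes lie at or beyond 1 and -1, and the cloud of all genes, with a median of 0.04, widens towards low read counts.

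Genes that p53 activates lay mostly lower in TPDKO. Of 18 listed targets that act in cell cycle arrest and DNA repair, 11 were compared, 3 were called lower, 0 higher, and 10 lay below 0, with a median log2 ratio of -0.39. Over all genes 0.701% were called lower and 1.17% higher, with a median of 0.04. Of 12 listed targets that act in cell death, 4 were compared, 2 were called lower and all 4 lay below 0, with a median of -0.89. The 2 death calls were lost at a minimum of 50 reads, and 1 was called with plain Ensembl transcripts only. The medians moved too, to -1.07 (5 genes) and -0.50 (2 genes) at 50 reads, and to -0.29 and -0.59 with plain Ensembl transcripts only. The summed level of the first list was 579 CPM in TKO and 332 CPM in TPDKO, and of the second 482 and 280 CPM. WT lay near TKO in both sums, at 583 and 593 CPM, and PKO near TPDKO, at 276 and 244 CPM.

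Cdkn1a encodes p21, the inhibitor of cyclin-dependent kinases through which p53 halts the cycle. It had 744 reads in WT, 649 in TKO, 171 in PKO and 221 in TPDKO, so that the libraries with intact Trp53 were both well above the others. Its level fell from 214 CPM in TKO to 74.9 CPM in TPDKO, a log2 ratio of -1.52 (-1.74 to -1.29), and it was -1.93 (-2.18 to -1.69) in PKO over WT. Cdkn1a has 2 RefSeq windows. Its most-read transcript, ENSMUST00000023829 (50.1% of reads in TKO and 55.2% in TPDKO), is annotated to start downstream of the stretch shown, at position 29093769. The stretch upstream of one RefSeq start is shown because it holds 2 matches to the p53 half-site, in capitals, 73 and 51 bases before that start (chr17:29090881-29090962, GRCm38.p6, plus strand).
Cdkn1a promoter: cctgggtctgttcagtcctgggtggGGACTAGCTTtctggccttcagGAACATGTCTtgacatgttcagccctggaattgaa
A p53 half-site, searched on both strands, was present in 7.95% of all compared genes with a promoter window, in 3 of the 9 arrest and repair targets with a window (33.3%), in 2 of the 4 death targets and in 4 of 31 genes called lower (12.9%). Such a match is a description of the letters, and binding was not measured.

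Sesn2, a sestrin that restrains mTORC1 under stress, had 225 reads in WT, 156 in TKO, 75 in PKO and 63 in TPDKO (-1.27, -1.72 to -0.84). Its libraries fell in the same 2 groups as those of Cdkn1a. Polk, a polymerase that copies past damaged bases, had 50, 151, 65 and 70 reads (-1.07, -1.50 to -0.65), and here TKO alone was high. Btg2, an antiproliferative factor, was lower by less than 2-fold, with 207 reads in TKO and 111 in TPDKO (-0.86, -1.21 to -0.52), and Ccng1 had 62 and 46 reads at a log2 ratio of -0.39.

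Among the death genes, Bbc3 encodes PUMA, a BH3-only protein that releases the brake on BAX. It had 123 reads in WT, 124 in TKO, 34 in PKO and 31 in TPDKO, and its level of 40.9 CPM in TKO against 10.5 CPM in TPDKO was the largest fall among the 51 genes called lower (-1.96, -2.58 to -1.38). Apaf1, the scaffold of the apoptosome, had 140, 92, 75 and 40 reads (-1.16, -1.74 to -0.61). Bax, which forms the pore in the outer mitochondrial membrane, had 1548, 976, 637 and 621 reads, a difference short of 2-fold but with a narrow interval (-0.61, -0.76 to -0.47). Aen, an apoptosis-enhancing nuclease, had 105 reads in TKO and 78 in TPDKO (-0.39). For Bbc3 and Bax, as for Cdkn1a, WT and TKO were both above PKO and TPDKO.

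A further 15 targets of these lists fell under the read minimum in at least one library. Of the 7 arrest and repair targets among them, 3 lay below 0 and 4 above. Of the 8 death targets, 7 lay below 0 and 1 above. The examples here were picked with their values known. Those that reached the minimum in only one library did so where they are high, so their direction was set by that selection. Pmaip1, which encodes the BH3-only protein NOXA, had 40 reads in WT, 18 in TKO, 1 in PKO and 1 in TPDKO, and Fas, a death receptor, had 32, 33, 7 and 6. Eda2r, another receptor of that family, had 96, 41, 7 and 17 reads, and Trp53inp1 had 86, 41, 11 and 15. In each of these, WT and TKO were above PKO and TPDKO. In the other direction, Sesn1 had 5 reads in TKO and 21 in TPDKO, and Polh, a translesion polymerase, had 8 and 29, both below their WT counts of 59 and 53. Mdm2, the ubiquitin ligase that p53 induces and that degrades it, had 60, 29, 12 and 12 reads, also under the minimum (-1.24, -2.34 to -0.22). Of 14 listed regulators of p53, 7 were compared and none was called, beside 1.87% of all genes, with a median of 0.04. Another 5 fell under the minimum, of which 2 lay below 0 and 3 above. Mdm4, the partner of Mdm2, had 69 reads in both TKO and TPDKO (0.04, -0.46 to 0.54).

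**Figure D2:**
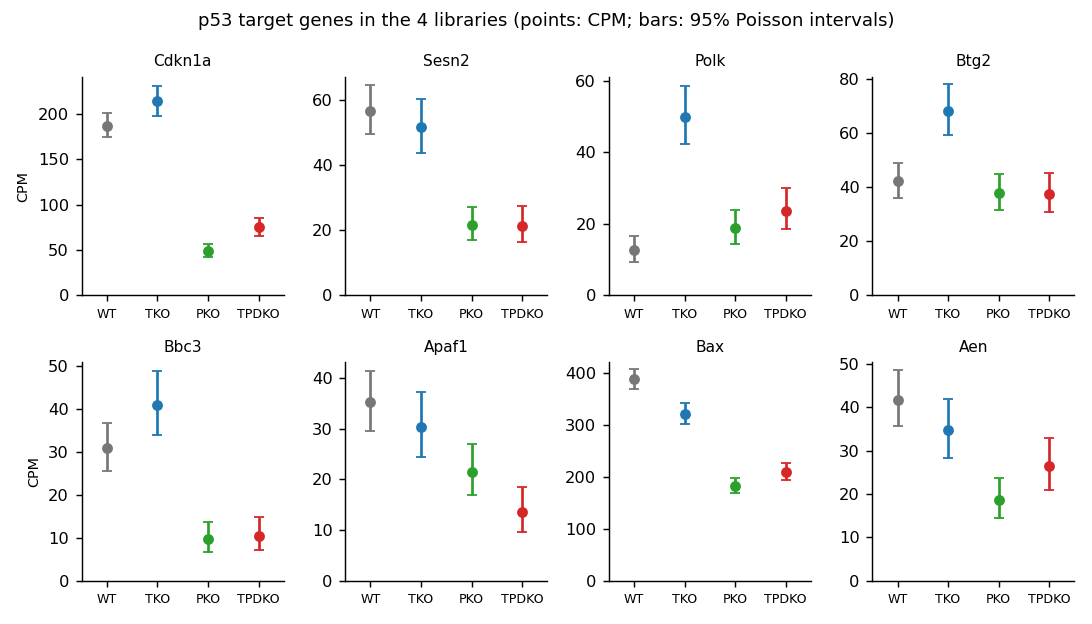
Levels of 8 compared p53 targets in the 4 libraries, one panel per gene, in CPM on linear axes that start at 0, with bars for 95% Poisson intervals. Cdkn1a falls from 214 CPM in TKO to 74.9 CPM in TPDKO and Bbc3 from 40.9 to 10.5 CPM, and in both WT sits with TKO and PKO with TPDKO.

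Beyond the lists, the genes lower in TPDKO by the widest margin held several with the same order of libraries. Ak1, an adenylate kinase, had 226 reads in WT, 84 in TKO, 22 in PKO and 28 in TPDKO (-1.55, -2.22 to -0.91). H2afj, a histone H2A variant, had 729, 134, 66 and 45 (-1.54, -2.06 to -1.04), and Dcxr, a reductase of sugars and dicarbonyls, had 103, 120, 34 and 43 (-1.44, -1.98 to -0.93). Chrna4, a nicotinic receptor subunit, had 244, 215, 104 and 78 reads (-1.43, -1.82 to -1.04). In each of these, PKO and TPDKO were both below WT and TKO. Mmp14, a membrane-bound metalloproteinase, had 84, 158, 123 and 55 reads (-1.48, -1.95 to -1.03), and Slc19a2, a thiamine transporter that p53 has been described to induce, had 72, 92, 58 and 31 (-1.53, -2.17 to -0.93). For Mmp14 the lowest libraries were TPDKO and WT instead.

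Lars2 (a mitochondrial leucyl-tRNA synthetase), Mir703 and Gm26384 were also called lower. Lars2 had 2925 reads in WT, 493 in TKO, 546 in PKO and 237 in TPDKO (-1.02, -1.25 to -0.79), Mir703 had 623, 199, 192 and 81 (-1.26, -1.65 to -0.88), and Gm26384 had 780, 230, 269 and 98 (-1.19, -1.55 to -0.85). The one gene annotated as rRNA in the table, CT010467.1, was likewise highest in WT and lowest in TPDKO, with 792995, 289585, 305844 and 156348 reads (-0.85, -0.86 to -0.84). The part of rRNA reads in those 3 calls was not tested.

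Other genes called lower were chosen after their values were seen. Trp53cor1, the long non-coding RNA known as lincRNA-p21 that lies beside Cdkn1a, had 30 reads in WT, 64 in TKO, 45 in PKO and 22 in TPDKO (-1.50, -2.27 to -0.78), an order unlike that of its neighbour. Ddit4l, an inhibitor of mTOR signalling, had 228, 197, 82 and 89 (-1.11, -1.49 to -0.74), and Gdf15, a secreted stress cytokine, had 71, 49, 20 and 20 (-1.26, -2.08 to -0.48). Apoe, the lipid carrier, had 168, 125, 37 and 54 reads (-1.17, -1.66 to -0.70). The last 3 shared the order of Cdkn1a.

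The enzymes of cholesterol synthesis were the list with most calls, all of them higher in TPDKO. This pathway builds sterols from acetyl-CoA through mevalonate, and its genes are switched on together by SREBP2 (Srebf2) when cell sterol runs low. Of 20 listed genes 17 were compared, 8 were called higher and 0 lower, beside 1.17% and 0.701% of all genes, and 16 lay above 0. With plain Ensembl transcripts only 5 were called, and with DESeq2 size factors 6, in both cases without Sqle and Nsdhl. Their median log2 ratio was 0.87 beside 0.04 over all genes, and their summed level was 1324 CPM in TKO and 2463 CPM in TPDKO. WT was the highest at 2803 CPM and PKO lay between at 1776 CPM, so that TKO was the lowest of the 4 libraries.

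At the entry to the pathway, Hmgcs1, which makes HMG-CoA, had 2199 reads in WT, 524 in TKO, 666 in PKO and 1149 in TPDKO (1.17, 1.02 to 1.32). Idi1, the isopentenyl diphosphate isomerase, had 507, 127, 173 and 259 reads (1.07, 0.75 to 1.38). TKO was the lowest library for both of them. Fdps, which makes farnesyl diphosphate, had 2003, 849, 1353 and 1833 reads, and at 280 CPM in TKO and 621 CPM in TPDKO was the most abundant of the list in both (1.15, 1.03 to 1.27).

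Further along, Sqle, the squalene epoxidase, had 468 reads in WT, 141 in TKO, 188 in PKO and 277 in TPDKO (1.01, 0.71 to 1.31), and Lss, which closes the sterol rings, had 110, 38, 104 and 92 (1.31, 0.75 to 1.90). Msmo1, a sterol methyl oxidase, had 977, 286, 501 and 665 (1.26, 1.05 to 1.46), and Nsdhl, which works beside it, had 213, 83, 159 and 164 (1.02, 0.63 to 1.42). Dhcr7, the last reductase of one branch, had 311, 78, 96 and 187 (1.30, 0.91 to 1.70). All 5 were lowest in TKO. The master regulator Srebf2 was not called, with 377 reads in TKO and 339 in TPDKO (-0.12, -0.33 to 0.10). Of the 3 listed genes under the minimum, Mvd had 290, 18, 44 and 66 reads (1.91, 1.14 to 2.75), named after its values were seen.

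**Figure D3:**
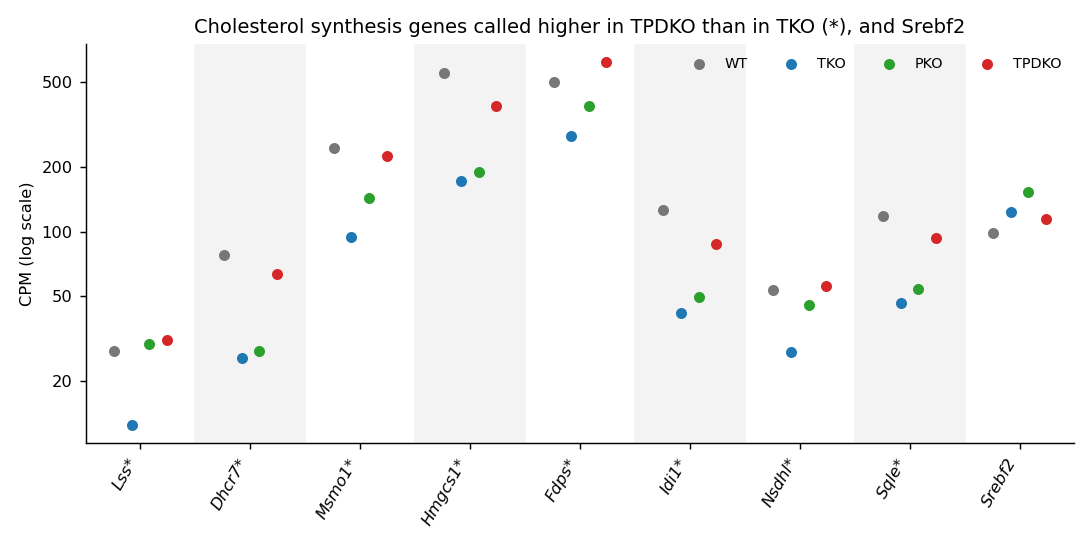
Levels in the 4 libraries of the 8 cholesterol synthesis genes called higher in TPDKO (starred) and of Srebf2, in CPM on a log axis. TKO is the lowest point for every starred gene, Fdps rising from 280 CPM in TKO to 621 CPM in TPDKO, and the points of Srebf2, at a log2 ratio of -0.12, lie closer together.

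The promoter of Hmgcs1 is shown because it alone among the 12 cholesterol genes with a RefSeq window held a sterol regulatory element by letters. The window of chr13:119690101-119690335 (GRCm38.p6, plus strand) has in capitals one match to TCACNCCAC, 137 bases before the start, and CCAAT boxes on the minus strand (ATTGG) at 237, 176 and 45 bases before it, the box that NF-Y binds.
Hmgcs1 promoter: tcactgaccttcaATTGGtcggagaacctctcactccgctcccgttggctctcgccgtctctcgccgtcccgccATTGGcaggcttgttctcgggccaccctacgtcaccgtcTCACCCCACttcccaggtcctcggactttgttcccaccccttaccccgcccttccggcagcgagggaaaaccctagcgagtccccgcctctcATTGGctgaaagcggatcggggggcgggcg
Of all compared genes with a window, 1.57% held TCACNCCAC and 44.7% held CCAAT on either strand. All 12 cholesterol genes with a window held CCAAT, and 4 of the 12 also held a p53 half-site.

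Several genes named by their margin belong to no list used here. Scd2, a stearoyl-CoA desaturase of the brain, had 1823 reads in WT, 199 in TKO, 227 in PKO and 585 in TPDKO (1.59, 1.36 to 1.83). Acly, which makes cytosolic acetyl-CoA from citrate, had 697, 66, 59 and 168 (1.39, 0.97 to 1.82), and Acat2, which joins acetyl-CoA units at the start of the mevalonate route, had 311, 91, 121 and 240 (1.44, 1.08 to 1.80). Tmem97, a sterol-responsive membrane protein, had 586, 204, 347 and 522 (1.39, 1.16 to 1.63). TKO and PKO were the lowest libraries for all 4, and in CPM WT was above TPDKO for Scd2 and Acly but not for Acat2 and Tmem97. Elovl5, an elongase of fatty acids, named after its values were seen, had 539, 114, 80 and 231 reads (1.06, 0.73 to 1.39).

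The integrated stress response raises amino acid synthesis and transport through the transcription factor ATF4, and the unfolded protein response raises chaperones of the endoplasmic reticulum. Of 25 genes listed for both responses, 19 were compared, 3 were called higher and 1 lower, and 15 lay above 0, with a median of 0.46, beside 1.17% of all genes called higher, 0.701% called lower and a median of 0.04. Asns, the asparagine synthetase, had 405 reads in WT, 116 in TKO, 221 in PKO and 307 in TPDKO (1.44, 1.13 to 1.76). Psat1, of serine synthesis, had 1248, 358, 492 and 761 (1.13, 0.94 to 1.31), and Shmt2, which turns serine to glycine in mitochondria, had 192, 30, 57 and 65 (1.15, 0.51 to 1.83). The one gene called lower was Sesn2, which p53 also induces. Other amino acid genes of the list were not called, such as Slc3a2 (0.96, 0.56 to 1.36), Phgdh (0.78, 0.56 to 1.01) and Slc7a5 (0.32, 0.09 to 0.55). Atf4 itself had 184 reads in TKO and 291 in TPDKO (0.70, 0.43 to 0.97), and Ddit3, which encodes CHOP, had 58 and 68 (0.27, -0.26 to 0.80). No compared chaperone or folding enzyme of the endoplasmic reticulum was called. Their log2 ratios ran from -0.24 for Dnajc3 to 0.80 for Pdia6, with Pdia6 at 73.3 CPM in TKO and 128 CPM in TPDKO (0.80, 0.56 to 1.05), Hspa5 at 81.9 and 117 CPM (0.51, 0.27 to 0.75) and Dnajc3 at 34.0 and 28.8 CPM (-0.24, -0.67 to 0.19). The list as a whole summed to 2677 CPM in WT, 1427 in TKO, 1664 in PKO and 2023 in TPDKO.

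A stretch of the Asns promoter is shown for its CARE, the element that ATF4 binds with C/EBP partners, in capitals 23 bases before the RefSeq start (TGATGNAA, chr6:7693215-7693242, GRCm38.p6, minus strand).
Asns promoter: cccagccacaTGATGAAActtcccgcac
The element was present on either strand in 2.45% of all compared genes with a window and in 5 of the 65 genes called higher that had one (7.69%), but also in 2 of the 31 called lower (6.45%), and in 1 of 17 of the stress response list (5.88%). CCAAT was present in 37 of the 65 called higher (56.9%).

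The following genes called higher were picked after their values were seen and stand for no group. Bcat1, a branched-chain aminotransferase, had 38 reads in TKO and 97 in TPDKO (1.39, 0.83 to 1.97), and Gcat, of threonine and glycine metabolism, had 30 and 70 (1.26, 0.62 to 1.93). The seryl- and tryptophanyl-tRNA synthetases Sars, with 200 and 393 reads, and Wars, with 52 and 104, had log2 ratios of 1.01 and 1.04. Aldh1l2, a mitochondrial folate enzyme, had 60 reads in WT, 26 in TKO, 91 in PKO and 52 in TPDKO (1.04, 0.33 to 1.78). Nupr1, a stress-induced nuclear protein, had 15, 25, 59 and 61 (1.32, 0.63 to 2.06), and was thus high in both libraries labelled as lacking p53.

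Of the remaining genes named by their margin, Cap1, which recycles actin, had 222 reads in WT, 26 in TKO, 42 in PKO and 82 in TPDKO (1.69, 1.04 to 2.39). Uhrf1, which guides DNA methylation to newly copied strands, had 220, 21, 33 and 66 (1.69, 0.96 to 2.47), and Cdca7, a cofactor of chromatin remodelling in dividing cells, had 269, 53, 59 and 142 (1.46, 0.99 to 1.94). In the wider list for DNA replication and cell division 0 of 32 genes were called, which is near the 1.87% of all genes, the median was 0.18, and the sum was 6667 CPM in TKO and 6400 CPM in TPDKO. Gm47283, on the Y chromosome, had 1644, 20, 34 and 66 reads (1.76, 1.02 to 2.56). It was read in libraries without other Y reads, so reads shared with a copy elsewhere make its value uncertain. H2-K1, a classical MHC class I gene and the one call among 10 compared interferon genes, had 101, 36, 100 and 76 reads (1.12, 0.53 to 1.73). Mrps27, 1 call among 76 mitochondrial ribosomal protein genes and so close to the 1.17% of all genes called higher, had 274, 93, 106 and 186 (1.04, 0.67 to 1.41).

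The largest ratio among the 7276 compared genes belonged to a processed pseudogene, Rpl3-ps1, with 823 reads in WT, 475 in TKO, 4457 in PKO and 4753 in TPDKO (3.36, 3.22 to 3.50). It is close in sequence to its parent, the ribosomal protein gene Rpl3, so the split of reads between them is uncertain. With the reads of both added, the counts were 11817, 7041, 8052 and 9292 and the log2 ratio was 0.44 (0.39 to 0.48). Of 156 processed pseudogenes compared, 1 was called higher and 8 lower, or 5.77% in all beside 1.87% of all genes, with a median of -0.27.

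A second pair of libraries that differs in p53, PKO over WT, shares no library with TPDKO over TKO, and differs from it in Cre treatment as well as genotype. The libraries with Y-linked reads, TPDKO and WT, are the numerator of one ratio and the denominator of the other. In the 6851 genes with 20 reads in all 4 libraries, 604 (8.82%) were higher and 865 (12.6%) lower in PKO than in WT by the same rule. Of the 49 of them that were lower in TPDKO than in TKO, 16 were lower in both comparisons, which is 32.7% of the 49 and 1.85% of the 865. These were Bbc3, Cdkn1a, Chrna4, H2afj, Dcxr, Ak1, Mir703, Gm26384, Sesn2, Lars2, Ddit4l, Gm11478, Apoe, Gm15536, Gdf15 and Gm10247. One gene, Golga4, was lower in TPDKO over TKO and higher in PKO over WT.

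The genes higher in TPDKO stood differently. Of 81 such genes, 58 were lower in PKO than in WT, which is 71.6% of the 81 and 6.71% of the 865, and only Rpl3-ps1 was higher in both. The cholesterol list had a median of 0.87 in TPDKO over TKO and of -0.46 in PKO over WT, and the stress response list one of 0.46 and -0.68. The medians of the p53 lists lay below 0 in both, at -0.39 and -0.16 for arrest and repair and at -0.89 and -1.13 for death. Their members did not all do so. Of the 3 called arrest and repair targets, Cdkn1a and Sesn2 were lower in both, and Polk was at -1.07 and 0.57. WT was the highest of the 4 libraries for 63 of the 85 genes called higher (74.1%), beside 37.0% of all genes compared, so most of them were higher in TPDKO than in TKO without passing the WT level.

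**Figure D4:**
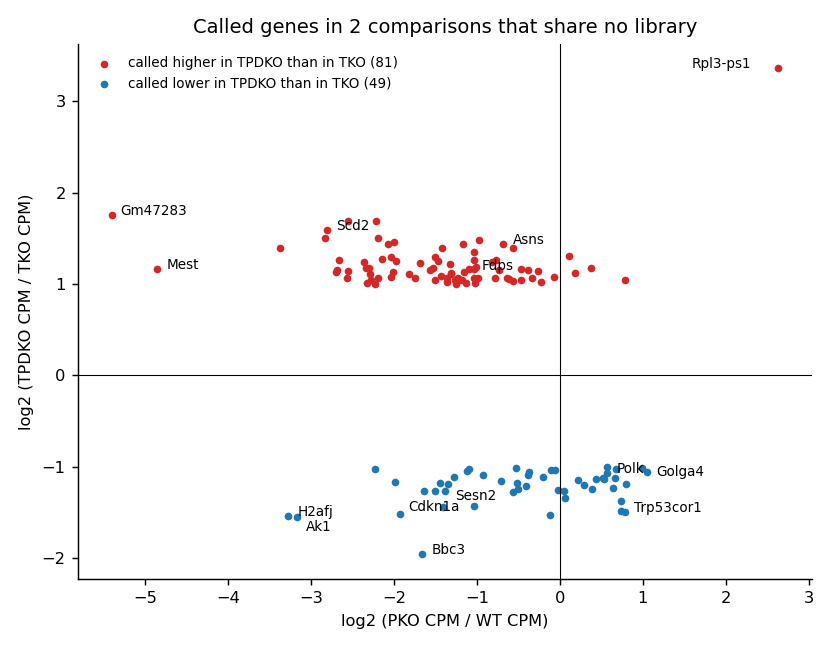
Each point is a gene called different between TPDKO and TKO and read at 20 or more in all 4 libraries (81 higher in red, 49 lower in blue), with its log2 PKO over WT ratio across and its log2 TPDKO over TKO ratio up. The red points lie mostly at the upper left, 58 of the 81 being called lower in PKO than in WT, while Bbc3, Cdkn1a, Ak1 and H2afj lie at the lower left, below 0 in both.

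No gene of the splicing lists was called, beside 1.87% of all genes. U6 processing and U6-binding proteins, which include the La protein (Ssb) and the Lsm ring that holds the U6 tail, had 0 calls in 16 genes, but 15 lay above 0, with a median of 0.28 and a sum of 2681 CPM in TKO and 3181 CPM in TPDKO. Ssb had 1008 reads in TKO and 1205 in TPDKO (0.30, 0.17 to 0.42), Lsm8 had 688 and 867 (0.37, 0.23 to 0.52), and Usb1, the exonuclease that trims U6, had 20 and 20 (0.04, -0.93 to 1.01). Among 26 core spliceosome proteins and 28 SR proteins and hnRNPs the counts of calls were 0 and 0, with medians of 0.12 and 0.17, and the SR protein and hnRNP sum was 4911 CPM in TKO and 5851 CPM in TPDKO. The 12 compared factors of nonsense-mediated decay had 0 calls and a median of -0.20.

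The read minimum leaves out genes nearly absent from one library, and 947 genes passed it in only one, 522 in TKO and 425 in TPDKO. Each of these entered through the library where it is high, so their direction was set by the selection and the values are a description. The 4 Y-linked genes led the higher ones, from Kdm5d, with 0 reads in TKO and 96 in TPDKO (at least 32.8-fold higher), to Uty, with 0 and 42 (at least 14.4-fold), followed by Gm3182, with 0 and 22 (at least 7.53-fold). Xist led the lower ones, with 44 reads in TKO and 0 in TPDKO (at least 14.3-fold lower). Gm17081 had 37 and 0 reads and 9530053A07Rik had 78 and 9 (-3.08, -4.26 to -2.08). Six3, a homeobox gene of the anterior forebrain, had 8 reads in WT, 23 in TKO, 18 in PKO and 0 in TPDKO (at least 7.47-fold lower), and its antisense neighbour Six3os1 had 8, 26, 24 and 0 (at least 8.44-fold lower). Because the way strand was handled in counting is not known, reads of Six3 and Six3os1 cannot be told apart with certainty.

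Isoform usage, the share of a gene's reads held by one isoform, was compared for 15909 isoforms in 4437 genes. A difference was called at 10 points or more with an interval, set to miss in 1 of 1000 cases, that excluded 0. Intervals printed beside differences are at 95%. This called 55 isoforms (0.346%) in 45 genes, 26 with a higher and 29 with a lower share in TPDKO. The median absolute difference was 2.13 points, and 1708 isoforms differed by 10 points or more without regard to the interval.

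The widest margin was that of Mrpl55, a protein of the mitochondrial ribosome. Its transcript ENSMUST00000108785 held 38.7% of reads in WT, 33.7% in TKO, 8.21% in PKO and 7.75% in TPDKO, a difference of -25.9 points from TKO to TPDKO (-33.8 to -17.4). ENSMUST00000045697 moved the other way, from 37.5% in TKO to 59.2% in TPDKO, with 94 of 313 reads in WT and 56.0% in PKO. The annotated forms differ in untranslated bases only, by 13 at the start, 132 at the end and 3 at one splice acceptor (chr11:59204172-59204174, GRCm38, plus strand). The last are shown in capitals.
Mrpl55 ENSMUST00000045697: ctcccacgctaagCAGggcctacgtcggg
Mrpl55 ENSMUST00000108785: ctcccacgctaagggcctacgtcgggg
The libraries split by the floxed p53 allele, and Mrpl55 lies 10.4 Mb from Trp53 on chromosome 11. Top3a, a topoisomerase gene 8.84 Mb from Trp53, also had a called isoform, ENSMUST00000002891, with 90.5% of reads in WT, 88.9% in TKO, 77.8% in PKO and 25 of 51 reads in TPDKO, and PKO minus WT was not called (-12.7 points, -36.1 to 14.6). Whether DNA around the floxed allele differs between these mice was not tested.

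Cyb5r3, a cytochrome b5 reductase on chromosome 15, split the same way. Its transcript ENSMUST00000018186 held 72.5% of reads in WT, 63.2% in TKO, 35.1% in PKO and 43.0% in TPDKO, and a variant of it held 6.54%, 19.4%, 48.6% and 42.4% (TPDKO minus TKO 23.0 points, 15.6 to 29.9). Atf4, the stress response factor named above, had 88.5%, 88.6%, 71.4% and 75.9% of its reads on ENSMUST00000109605 (-12.6, -19.1 to -5.58), named after its values were seen. In these 3 genes, Mrpl55, Cyb5r3 and Atf4, lay all 6 isoforms called in the same direction in PKO minus WT, out of 1075 called there (6.95% of 15477). Atf4 and Cyb5r3 lie on chromosome 15, 0.177 and 3.08 Mb from Rpl3. The 6 isoforms are pairs from these 3 genes, and the shares within a gene depend on each other, so they stand for 3 genes. Another 27 of the 55 were called in the opposite direction in PKO minus WT.

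Among RNA-binding proteins, Ptbp1, a repressor of neuronal exons in progenitors, had 84.0% of its reads on ENSMUST00000165704 in TKO and 69.0% in TPDKO, with 75.0% in WT and 85.1% in PKO (-15.0 points, -21.1 to -8.45). Its transcript ENSMUST00000172282 moved the other way, from 9.06% in TKO to 19.8% in TPDKO, and was named after its values were seen. The annotated ends of these forms differ as well, and ENSMUST00000172282 carries a 78-base coding exon (chr10:79860117-79860194, GRCm38, plus strand), which is shown in capitals between the ends of its neighbours.
Ptbp1 ENSMUST00000172282: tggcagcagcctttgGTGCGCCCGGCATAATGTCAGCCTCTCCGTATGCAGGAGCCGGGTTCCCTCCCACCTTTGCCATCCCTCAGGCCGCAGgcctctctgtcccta
Hnrnpa3, another splicing regulator, had 62.3% of reads on ENSMUST00000111962 in TKO and 51.3% in TPDKO (-11.0 points, -14.6 to -7.47), and 40.1% in WT.

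Ahsa1, an activator of the HSP90 chaperone, shifted between its coding form and a form that retains an intron and also starts later, with 573 bases of its own in place of the first exons. The retained form ENSMUST00000223239 held 32.7% of reads in WT, 62.4% in TKO, 59.2% in PKO and 48.3% in TPDKO, and the coding form ENSMUST00000021425 held 58.9%, 29.8%, 34.2% and 41.9%. TPDKO thus lay between TKO and WT, at -14.0 points from TKO for the retained form (-20.3 to -7.63). The intron spans 379 bases (chr12:87269958-87270336, GRCm38, plus strand), and its first bases are in capitals after the exon's last ones, above the same exon spliced.
Ahsa1 ENSMUST00000223239: gtggatgaagtggagGTTTGTGTTTGCCGA
Ahsa1 ENSMUST00000021425: gtggatgaagtggagattagtgtgagcctt
Of 1510 compared isoforms annotated as retained introns, 0 were called higher and 3 lower, those of Ahsa1, Ndufs1 and Thoc1, and the share was higher in 612 and lower in 897, with a median difference of -0.42 points. Over all isoforms compared 0.182% were called lower and 0.163% higher, so 3 of 1510 is close to the background. The Ndufs1 form, of a complex I subunit and named after its values were seen, held 3.27% of reads in WT, 18.1% in TKO, 17.5% in PKO and 3.75% in TPDKO. Of 228 isoforms annotated for nonsense-mediated decay, 0 were called higher and 1 lower, that of Ankrd10.

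Other isoforms named by their margin came from genes of several kinds. Eif4g2, a translation initiation factor, had 67.5% of reads on a variant of ENSMUST00000162415 in WT, 24.8% in TKO, 19.8% in PKO and 41.1% in TPDKO. Glyr1, a nucleosome-binding protein, had 33.3%, 84.2%, 87.9% and 68.8% on ENSMUST00000023189. In both, TKO and PKO were close to each other and TPDKO lay between them and WT. Ccar1, a regulator of the cell cycle and apoptosis, had 31.1%, 55.1%, 48.6% and 32.3% on an isoform that the table names by a read (-22.8 points, -31.0 to -14.2), and Zc3h11a, a zinc finger protein of mRNA export, had 61.4% on another such isoform in TKO and 34.9% in TPDKO (-26.5, -39.1 to -12.5). Exoc1, of the exocyst, had 22.2% on ENSMUST00000049469 in WT, 2.08% in TKO, 5 of 50 reads in PKO and 32.8% in TPDKO, from 48 gene reads in TKO. Bax, described above for its level, had 28.7%, 34.9%, 21.4% and 24.2% on a variant of ENSMUST00000210392, a fall of 10.8 points from TKO to TPDKO. Clta, the clathrin light chain, named after its values were seen, had 34.2% of reads in TKO and 23.1% in TPDKO on ENSMUST00000107845, which lacks 6 coding bases (chr4:44013003-44013008, plus strand) that ENSMUST00000170241 has in capitals.
Clta ENSMUST00000170241: agccgccgggagGTCCGGatgctgttgacg
Clta ENSMUST00000107845: agccgccgggagatgctgttgacg

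**Figure D5:**
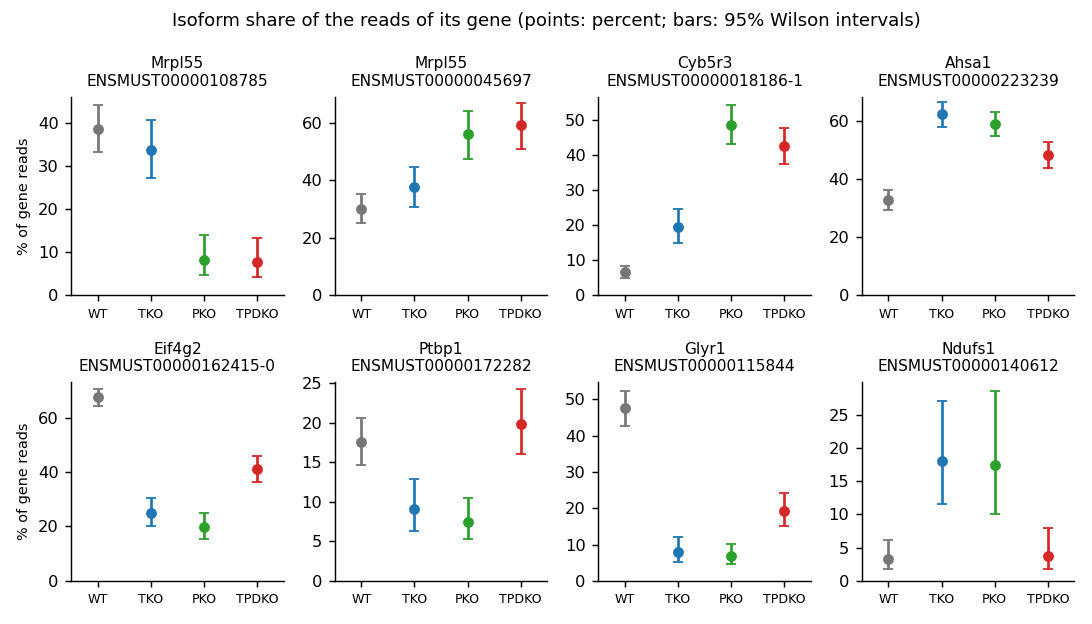
Shares of gene reads, in percent, held by 8 called isoforms in each of the 4 libraries, one panel each on linear axes that start at 0, with bars for 95% Wilson intervals. Mrpl55 and Cyb5r3 separate WT and TKO from PKO and TPDKO, for Ahsa1, Eif4g2 and Glyr1 TPDKO lies between WT and TKO, and for Ptbp1 and Ndufs1 TPDKO lies with WT.

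The study assayed the splicing of Pnisr, Prpf4b, Ube2v2 and Rit1. Between TPDKO and TKO 0 isoforms of the first 3 were called, beside 0.346% of all isoforms compared. Few isoforms of these genes were compared, so 0 calls is near that share. In Prpf4b, a kinase of the spliceosome, the intron-retaining form ENSMUST00000221639 held 35.1% of reads in WT, 64.8% in TKO, 58.4% in PKO and 67.2% in TPDKO, a difference of 2.42 points between the last and TKO (95% interval -1.32 to 6.15). In Ube2v2, a ubiquitin-conjugating enzyme variant of DNA damage tolerance, ENSMUST00000115776 held 19.4%, 30.7%, 15.3% and 30.2%. In Pnisr, a protein of nuclear speckles, ENSMUST00000152666 held 16.1%, 34.3%, 16.8% and 31.9%. In the last 2 isoforms, selected after their values were seen, the libraries with floxed Tut1 and Cre lay together above WT and PKO, unlike the summed Tut1 reads. The difference from TKO to TPDKO was -0.479 points (-8.06 to 7.04) for the Ube2v2 form and -2.34 points (-13.2 to 8.52) for the Pnisr form. Rit1, with 54 reads in TKO and 48 in TPDKO, did not have enough isoforms above the minimum to enter.

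Over all compared genes, isoforms annotated as retained introns held 1.48% of reads in TKO and 1.45% in TPDKO, and coding transcripts 57.8% and 62.2%, while the rRNA entry held 9.94% and 5.56%. With rRNA and mitochondrial genes left out, retained introns held 1.76% in TKO (95% Wilson interval 1.74 to 1.78) and 1.62% in TPDKO (1.61 to 1.64), beside 1.13% in WT and 1.63% in PKO. The step from TKO to TPDKO was larger than counting error and small beside the gap of both to WT. Coding transcripts, with the same genes left out, held 66.3% in TKO and 67.3% in TPDKO, a smaller gap than with them.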

How the data were processed

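Total RNA of 4 primary neural stem cell cultures, 1 per genotype, was read by Nanopore cDNA-PCR sequencing. The authors deposited one table of raw read counts per isoform entry for the 4 libraries, with mm10 named in the submitters' processing notes; the Methods name minimap2 and FLAIR for long reads of embryonic palliums, and what was run on these cultures, with which filters and strand setting, is not given in the sources used here. Of 255164 entries, 46637 carried a mouse gene identifier and were summed by gene. Entries without a gene (17.2 to 30.2% of reads) stayed out of library sizes. Names, biotypes and coordinates came from GENCODE M21 (GRCm38) and promoter sequences from RefSeq (GRCm38.p6), of which 5596 of the compared genes had a window.

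CPM used TMM factors of edgeR 4.0.16 in R 4.3.3, and DESeq2 1.42.0 gave size factors as an alternative. No model was fitted. Ratio intervals were exact conditional binomial (Poisson-based), shares had Wilson and differences of shares Newcombe intervals. Python 3.11.15, numpy 2.4.6, scipy 1.17.1, pandas 2.3.3 and matplotlib 3.10.9 were used, and the steps were tested on simulated data.

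Members and gene lists were chosen with earlier results of these data known. The genes named are Tut1, Trp53, called list members (at most 8 per list), the 12 genes per direction (no pseudogenes or rRNA) with the widest margin, up to 15 isoforms likewise, 5 per direction under the read minimum, and 4 assayed genes. A few results that this rule or a list would name are not reported here.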

Additional observations from a re-analysis of the deposited data

Results flagged for a closer look

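Libraries are named here as labelled. The summed Tut1 reads went against the TPDKO and PKO labels, but that sum also holds forms other than the coding transcript. It does not test the loss of the second exon. The cholesterol synthesis list was singled out because most of its members stood on opposite sides of no change in TPDKO over TKO and PKO over WT. Its median log2 ratio was 0.87 in TPDKO over TKO and -0.46 in PKO over WT, and 13 of 17 genes had opposite signs. The unfolded protein and integrated stress response list was singled out for the same reason, with medians of 0.46 and -0.68 and opposite signs in 13 of 19 genes. With 1 library per genotype, neither difference between the comparisons was tested. The WT library, which also stood apart in its share of reads without a gene and received no Cre, is the denominator of the second value in both. TPDKO and WT were also the libraries with Y-linked reads, and TKO and PKO those with Xist. Sex and embryo thus divide the comparisons in opposite directions and cannot be told apart from genotype.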

How the results depend on the processing

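With 1 culture per genotype, the intervals hold counting error only, and embryo, sex and genotype cannot be told apart. No paired analysis was possible because each group has 1 library, and for the same reason no replicate could be left out. Called genes numbered 49 (33 higher, 16 lower) at a minimum of 50 reads, where 0 p53 death targets were called, 289 (151 and 138) at 10 reads, and 841 (501 and 340) at 1.5-fold. With plain Ensembl transcripts only, 89 were called, 46 of them higher, with 5 cholesterol genes and 1 p53 death target. Called isoforms numbered 15 at 20 points, 635 with a 95% interval and 35 as a share among plain Ensembl transcripts. Scaling by total reads (137 genes), DESeq2 size factors (137, 78 higher and 59 lower), a wider interval (112), leaving out X and Y (131 genes, 53 isoforms) and 50 gene reads for isoforms (50) stayed within 1.5 times of 136 and 55, as did 2 alternatives chosen after seeing the data, protein-coding genes only (120) and Ensembl transcripts with their variants (47 isoforms). Of 282 recomputed ratios of 34 named genes 278 kept their call and direction, and none reversed. Sqle (0.99 and 0.95) and Nsdhl (just short of 2-fold, and 0.81) lost their calls under DESeq2 scaling and with plain transcripts. Much of that count was fixed in advance. Where only the read minimum, the fold or the set of genes changed, the ratio and interval stayed the same. A named gene that entered there had to keep its call, and one that did not enter was not counted. Bbc3, for one, did not enter at a minimum of 50 reads or with plain Ensembl transcripts only. Depth limits the weakly read genes, as Capza1 shows, whose 20 reads in TKO and 39 in TPDKO gave an interval of 0.19 to 1.86 on the log2 scale.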

Other observations

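Further gene groups had no calls, beside 1.87% of all genes. Genes of the Notch and Wnt pathways, which help to keep neural stem cells undifferentiated and dividing, had 0 calls in 11 compared genes, but 10 lay below 0, with a median of -0.21. Immediate early genes, the first to respond to growth signals, had 0 calls in 8, 7 below 0 and a median of -0.32. Heat shock proteins had 0 calls in 13, 10 above 0 and a median of 0.29, and their sum was 3686 CPM in TKO and 4700 CPM in TPDKO. General cell death genes other than p53 targets had 0 calls in 12 and a median of 0.10. Genes of metal and oxidative stress had 0 calls in 17 and a median of 0.07.

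Among the large gene families, 81 cytosolic ribosomal protein genes had 0 calls and a median of 0.09, and 92 respiratory chain genes 0 calls and a median of 0.00. Proteasome subunits had 0 calls in 43, 37 above 0 and a median of 0.23. Zinc finger genes named Zfp had 0 calls in 135 and a median of -0.03. The 12 compared mitochondrially encoded genes had 0 calls and a median of -0.08, with a summed level of 56352 CPM in TKO and 46620 CPM in TPDKO beside 26531 CPM in WT. Hosts of snoRNAs and nuclear long non-coding RNAs had 0 calls in 9 and a median of -0.01. Of 4 compared X-linked genes that escape inactivation 0 were called, with log2 ratios of -0.77 (-1.07 to -0.48) for Kdm5c, -0.38 (-0.57 to -0.18) for Ddx3x, -0.01 (-0.40 to 0.37) for Eif2s3x and 0.04 (-0.66 to 0.74) for Kdm6a. Kdm5c and Ddx3x were higher in TKO and PKO, the libraries with Xist, than in WT and TPDKO, and Eif2s3x and Kdm6a were not.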
